A study of Drosophila melanogaster with 150 samples.

Results

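Peptidoglycan recognition proteins are the fly's sensors and scavengers of bacterial cell wall, and 8 of their genes were looked for on the array by symbol: PGRP-SA, PGRP-SB1, PGRP-SC2, PGRP-SD, PGRP-LB, PGRP-LC, PGRP-LE and PGRP-LF. Of the 8 genes, 5 had a probe set that the platform table assigns to that symbol alone, with 1 probe set each: PGRP-SB1 (1636490_at), PGRP-SC2 (1629118_at), PGRP-LB (1630741_s_at), PGRP-LE (1638119_at) and PGRP-LF (1633145_at). PGRP-SA, PGRP-SD and PGRP-LC were not analysed here. The 5 genes were read among 18769 probe sets that carry 11981 single-gene symbols.

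RNA was taken from whole adult male Drosophila melanogaster of 75 recombinant inbred lines, the roo lines, raised on 2 diets. The control diet was cornmeal, agar, sugar and yeast with 250 uM sodium acetate, and the lead diet was standard food with 250 uM lead acetate, so that both carried acetate. Parents (20 of each sex) laid eggs for 3 days in a vial of 10 ml food at 25 degrees C. Their sons were pooled (65 from a vial) at an age of 5 to 10 days, and 50 mg of frozen flies went into the extraction. This gives 150 arrays, 75 labelled control and 75 labelled lead, with 1 pool of a line on each diet and no second pool.

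Peptidoglycan recognition proteins bind peptidoglycan, the polymer of bacterial cell walls, and divide into receptors that start the Imd and Toll pathways, amidases that cut peptidoglycan and so lower its signal, and inhibitors of the receptors. Both pathways end in NF-kappaB factors that switch on antimicrobial peptides made by the fat body, the blood cells and epithelia such as the gut. In an uninfected fly the gut flora is the standing source of peptidoglycan, and the gut is known to rely on amidases and inhibitors that hold the Imd pathway down.

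Values are the deposited signals, read as log2, and all differences are log2 differences. Array medians lay between 5.29 and 5.55, and the array least like the rest still correlated with them at a median of 0.954, against 0.982 for the typical array. No probe set differed between the labelled diets, MtnB included, and the deviations of the 2 arrays sharing a labelled line correlated at a mean of 0.0668, against 0.000471 for arrays of unlike lines, so the groups are named here as labelled. The female yolk and eggshell list of 11 genes, which should be silent in males, had a mean signal with medians of 3.94 on arrays labelled control and 3.99 on arrays labelled lead, and highest values of 8.62 on control and 10.28 on lead. In RNA of whole flies, fewer cells of a type and less RNA per cell cannot be told apart. P-values measure the spread between these arrays, each of which is a single pool.

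The amidases are described first. PGRP-SB1 is a secreted amidase of the blood that cleaves the peptidoglycan of Gram-negative bacteria and is itself induced on infection. Its signal was 7.40 ± 0.91 (SD, n = 150), from 5.23 through a median of 7.35 to 10.20, and its SD stood at the 97.9th percentile of all probe sets, whose median SD was 0.219. Arrays labelled control ran from 5.23 through 7.46 to 10.20, and arrays labelled lead from 5.58 through 7.34 to 9.77. The top values were single arrays, line 203 on control at 10.20 and line 210 on lead at 9.77. The same line 203 control array also held the highest Mtk, at 11.92, and the highest DptB, at 10.46.

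PGRP-SC2 is a secreted amidase known for its work in the gut, where it breaks down peptidoglycan of the gut flora. It measured 8.44 ± 0.91 (SD, n = 150), from 6.05 through a median of 8.67 to 10.55. Arrays labelled control ran from 6.24 through 8.70 to 10.55, and those labelled lead from 6.05 through 8.65 to 10.21. Both labels covered nearly the whole range.

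PGRP-LB is an amidase that is induced by the Imd pathway and limits it. Its signal was 6.77 ± 0.44 (SD, n = 150), from 5.71 through 6.81 to 8.01. On control it ran from 5.71 through 6.82 to 8.01, and on lead from 5.81 through 6.79 to 7.67. The highest value came from line 50 on control, an array that ranked 2 for PGRP-SC2 and for PGRP-LE among the 150.

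PGRP-LE is a receptor that senses peptidoglycan inside the cell and starts the Imd pathway. Its spread was the smallest of the 5, at 7.43 ± 0.15 (SD, n = 150), from 7.003 through 7.43 to 7.81. On control its lowest, median and highest signals were 7.003, 7.42 and 7.81, and on lead 7.08, 7.44 and 7.74. The labels overlapped over nearly the whole range.

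PGRP-LF is a membrane protein that does not bind peptidoglycan and inhibits signalling by the receptor PGRP-LC, its neighbour on the chromosome. It measured 5.60 ± 0.40 (SD, n = 150), from 4.57 through 5.57 to 6.72. Arrays labelled control ran from 4.57 through 5.63 to 6.72 and those labelled lead from 4.77 through 5.49 to 6.70. The highest value was that of line 226 on control, the array that also ranked 3 for DptB and 7 for Mtk. Signals of different probe sets are not compared with each other, since each probe set has its own response.

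**Figure D1:**
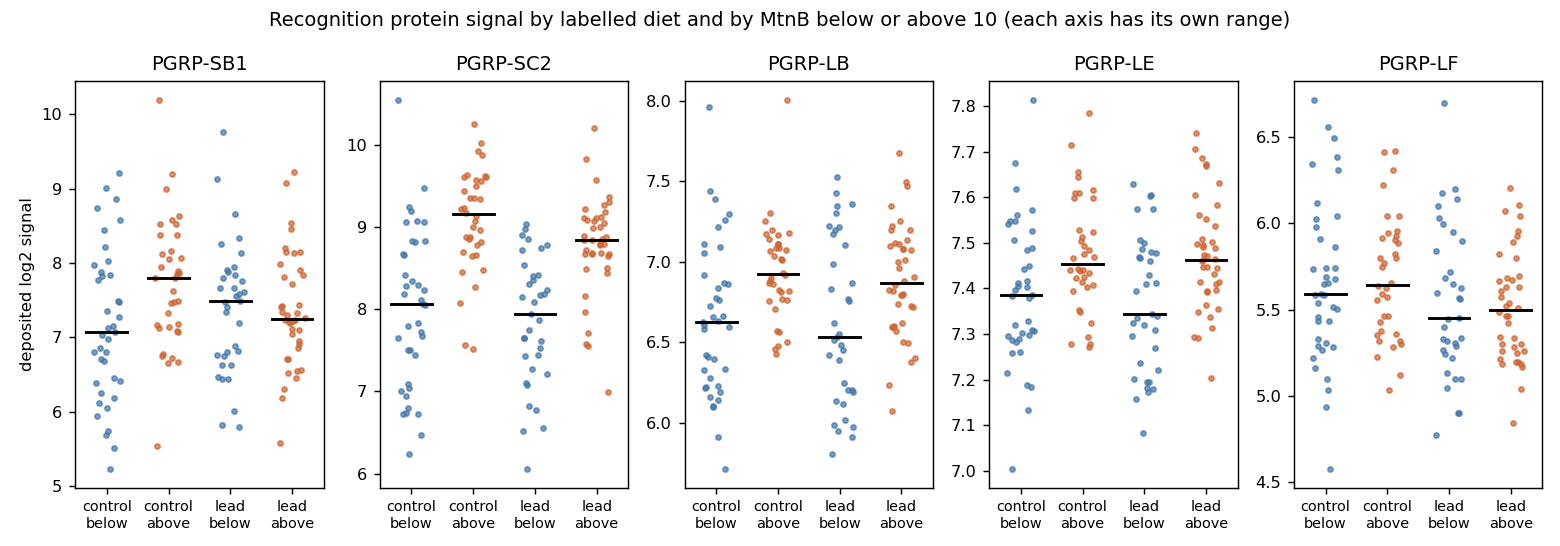
Deposited log2 signal of the 5 recognition protein genes (vertical axis, a range of its own in each panel) on every array, split by labelled diet and by MtnB below 10 (blue) or above 10 (orange), with group medians as bars. PGRP-SC2 is higher on the orange side under both labels, while the labelled diets overlap in every panel.

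Whether the labelled diet moved these genes was tested with limma on all 18769 probe sets, with line as a block. None of the 5 passed an adjusted p of 0.05, and of all probe sets 0% passed (490 had an unadjusted p under 0.05). Lead minus control was -0.06 ± 0.15 (SE, n = 75 lines) for PGRP-SB1, -0.17 ± 0.15 for PGRP-SC2, -0.02 ± 0.07 for PGRP-LB and -0.0071 ± 0.0209 for PGRP-LE. PGRP-LF had the lowest unadjusted p of the 5, 0.0274, with a difference of -0.14 ± 0.06 and an adjusted p of 1. Its signal was lower on lead in 44 of 75 lines and higher in 31.

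The 95% intervals of the difference are those of each gene alone. They are not adjusted for the number of probe sets and take the labels as given. They ran from -0.35 to 0.23 for PGRP-SB1, from -0.48 to 0.13 for PGRP-SC2, from -0.17 to 0.12 for PGRP-LB, from -0.05 to 0.03 for PGRP-LE and from -0.27 to -0.02 for PGRP-LF. The antimicrobial peptides had lead minus control of -0.14 ± 0.17 for Drs, -0.14 ± 0.22 for Mtk and -0.13 ± 0.14 for DptB, each with an adjusted p of 1. Within a line the diets could stand far apart in either direction: PGRP-SC2 on lead minus control ran from -3.47 to 2.72 over lines, and PGRP-SB1 from -2.90 to 2.61.

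Whether a gene followed its labelled line was tested with a moderated F-test in limma, with diet as a further term. None of the 5 passed, where 0.0107% of probe sets did. The correlation of control and lead signals over the 75 lines was -0.02 for PGRP-SB1, -0.12 for PGRP-SC2, -0.09 for PGRP-LB and 0.03 for PGRP-LF. PGRP-LE had the highest, 0.27, with an unadjusted p of 0.0135 and an adjusted p of 0.324. It was the single member of the 5 under an unadjusted p of 0.05, where 2317 of all 18769 probe sets were.

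**Figure D2:**
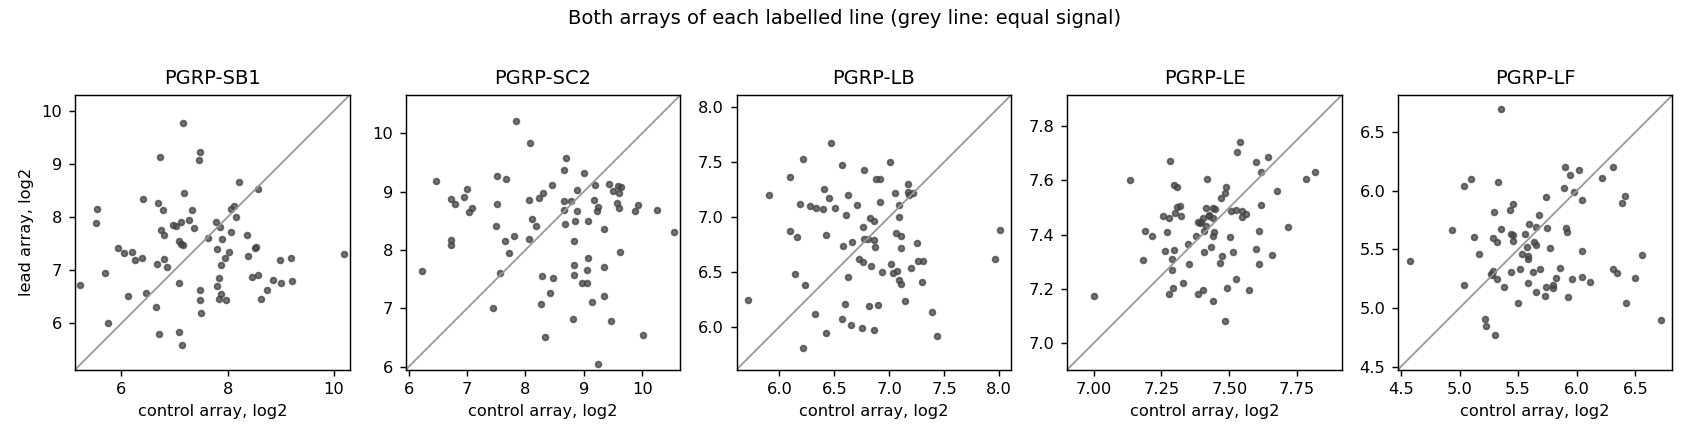
Log2 signal on the lead array (vertical axis) against the control array (horizontal axis) of each of the 75 labelled lines, for the 5 genes, with the grey line at equal signal. The correlation lies between -0.12 and 0.03 for 4 genes and is 0.27 for PGRP-LE.

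The recognition proteins were then set against the peptides that their pathways control. Metchnikowin (Mtk) is an antimicrobial peptide that both pathways can induce, diptericin B (DptB) is a classical Imd target, and drosomycin (Drs) is the standard readout of the Toll pathway. Over the 150 arrays PGRP-SB1, PGRP-LF and PGRP-LB were higher where Mtk and DptB were higher, while PGRP-SC2 and PGRP-LE had r between -0.04 and 0.01 with both. Each relation was tested with limma over all other probe sets, and r and rho have permutation p-values from 100000 orders of the arrays, of which the smallest possible is 1e-05. In all, 58 correlations were computed, 15 of them between a recognition protein and a peptide.

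Mtk itself ranged from 4.87 through 7.15 to 11.92, and the next highest array was at 10.58. With Mtk, 3 of the 5 genes passed, where 5.04% of all probe sets did, and all 3 were positive, as were 2.43% of probe sets. PGRP-SB1 had an r of 0.66 and a rho of 0.62 (permutation p of 1e-05 for both, adjusted limma p = 8.09e-17), and 0.46 ± 0.04 (SE) higher signal per unit of Mtk. PGRP-SB1 was among the 3 named genes most like Mtk on the whole array, after DptB at 0.81 and edin at 0.70.

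PGRP-LF followed with an r of 0.47 and a rho of 0.47 (permutation p of 1e-05 for both, adjusted limma p = 1.13e-06). PGRP-LB had an r of 0.31 and a rho of 0.29 (permutation p of 9e-05 and 0.00045, adjusted limma p = 0.0105). For PGRP-SC2 the r was -0.03 and for PGRP-LE it was -0.04, with adjusted p of 0.909 and 0.869. Of the amidases, PGRP-SB1 and PGRP-LB passed and PGRP-SC2 did not.

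Within each labelled diet the correlations were of a like size. Mtk with PGRP-SB1 gave an r of 0.71 on control and 0.59 on lead, with PGRP-LF 0.42 and 0.53, and with PGRP-LB 0.32 and 0.31. Without the 2 arrays farthest from the median of Mtk, r was 0.62 for PGRP-SB1, 0.47 for PGRP-LF and 0.27 for PGRP-LB. With line as a block, PGRP-SB1 kept its call, with a partial r of 0.74, while PGRP-LF had an adjusted p of 0.0523 and PGRP-LB one of 0.836.

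**Figure D3:**
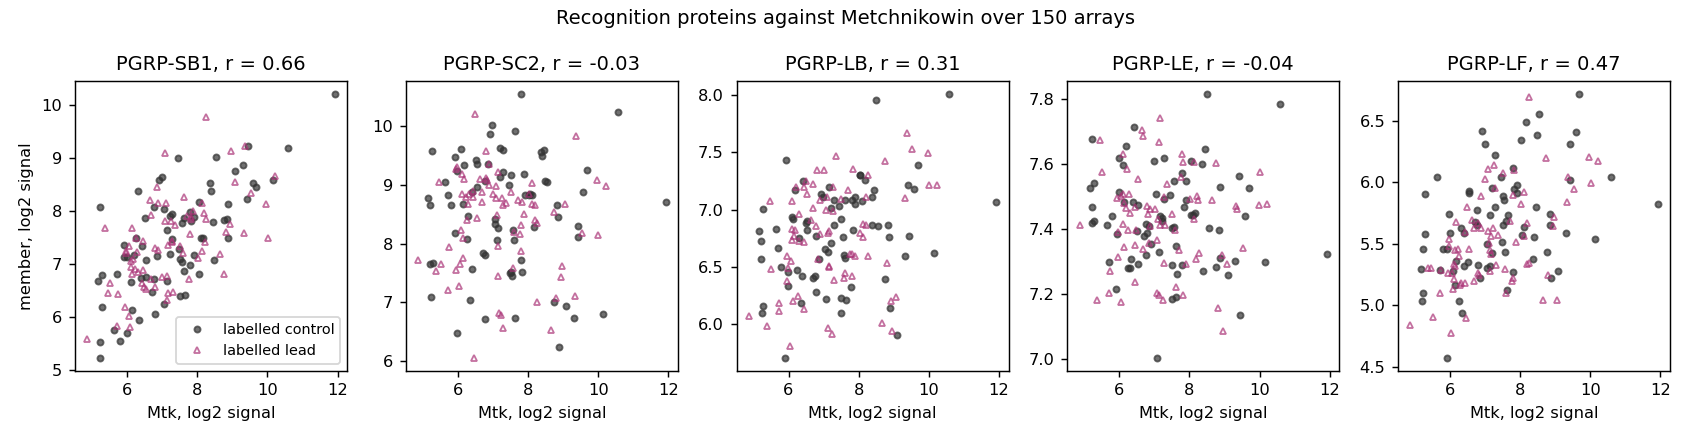
Log2 signal of each recognition protein gene (vertical axis) against that of Mtk (horizontal axis) on the 150 arrays, with filled circles for arrays labelled control and open triangles for arrays labelled lead. PGRP-SB1 has the highest r, 0.66, and PGRP-SC2 and PGRP-LE have r of -0.03 and -0.04.

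DptB ranged from 5.45 through 6.34 to 10.46, with the next array at 8.62. Again 3 of the 5 genes passed, where 2.42% of probe sets did, all 3 positive, as were 0.938% of probe sets. PGRP-SB1 had an r of 0.53 and a rho of 0.50, and PGRP-LF an r of 0.48 and a rho of 0.50 (permutation p of 1e-05 for all, adjusted limma p = 2.38e-09 and 4.16e-07). PGRP-LB had an r of 0.33 and a rho of 0.33 (permutation p of 5e-05 and 3e-05, adjusted limma p = 0.00844). PGRP-SC2 had an r of 0.01 and PGRP-LE one of -0.01.

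By labelled diet the r with DptB was 0.54 on control and 0.53 on lead for PGRP-SB1, 0.44 and 0.53 for PGRP-LF, and 0.38 and 0.28 for PGRP-LB. Without the 2 arrays farthest from the median of DptB, line 203 on control among them, it was 0.49 for PGRP-SB1, 0.50 for PGRP-LF and 0.32 for PGRP-LB. With line as a block the adjusted p was 3.83e-05 for PGRP-SB1, 0.0591 for PGRP-LF and 0.721 for PGRP-LB. On the arrays with MtnB below 10, described further on, r with DptB was 0.62 for PGRP-LF and 0.48 for PGRP-LB, and above 10 it was 0.31 and 0.34, a difference that was not tested. Mtk and DptB correlated with each other, so that their relations to the 5 genes are not separate results.

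Drs ranged from 6.13 through 9.56 to 11.93. None of the 5 genes passed with Drs in limma, where 10.8% of probe sets did. An unadjusted p under 0.05 was found for 2 of the 5 and for 4794 of all 18768 probe sets. PGRP-LF came nearest, with an r of 0.21 and a rho of 0.20 (permutation p of 0.00922 and 0.0164, adjusted limma p = 0.0666), and PGRP-SB1 had an r of 0.16 and a rho of 0.10. PGRP-LF fell under the threshold when line 47, 54, 100 or 226 was left out, with adjusted p from 0.0372 to 0.0475. The r of PGRP-LF with Drs was 0.15 on control and 0.26 on lead. Of the 11 female yolk and eggshell genes, 5 were positive with Drs, where 4.24% of probe sets were. With Mtk and with DptB, 0 of the 11 were positive. The part of these genes in the relations to Drs was not tested.

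Whether any of these relations differed between the labelled diets was tested as an interaction. With Drs, Mtk and DptB, 0% of probe sets passed, none of the 5 genes included, and 573, 578 and 796 probe sets had an unadjusted p under 0.05.

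Other immune genes were read from lists for context. Of the 15 other antimicrobial peptide genes on the list, 11 were positive with Mtk, 10 with DptB and 8 with Drs, and none were negative, beside 2.43%, 0.938% and 4.24% of all probe sets that were positive. The highest were DptB, edin (a peptide gene induced on infection), BomS2 at 0.53 and BomBc3 at 0.46 with Mtk. Of 16 genes of the Imd pathway, 2 were positive with Mtk, Rel (the NF-kappaB factor Relish) at 0.39 and key (a subunit of the kinase that activates Relish) at 0.28, and of all probe sets 2.43% were. Of 17 genes of the Toll pathway, 7 were positive with Mtk, led by nec (a serpin) at 0.40 and SPE (the protease that processes the Toll ligand) at 0.37.

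The 5 genes also varied with one another. The highest correlation was that of the amidases PGRP-SC2 and PGRP-LB, an r of 0.66 and a rho of 0.64 (permutation p of 1e-05 for both). PGRP-LB was also correlated with the inhibitor PGRP-LF, with an r of 0.59 and a rho of 0.57, and to the receptor PGRP-LE, with an r of 0.55 and a rho of 0.51 (permutation p of 1e-05 for all). PGRP-SB1 and PGRP-LF had an r of 0.40 and a rho of 0.33 (permutation p of 1e-05 and 8e-05). PGRP-SC2 had an r of 0.38 and a rho of 0.36 with PGRP-LF, and 0.36 and 0.34 with PGRP-LE (permutation p of 2e-05 or less).

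The other pairs of PGRP-SB1 were weaker, with PGRP-LB (r = 0.28, rho = 0.26), PGRP-SC2 (0.25 and 0.24) and PGRP-LE (-0.19 and -0.19), the single negative pair. PGRP-LE with PGRP-LF was the weakest pair, with an r of 0.18 and a rho of 0.18 (permutation p of 0.0243 and 0.0285). Without the 2 arrays farthest from the median of the first gene, r was 0.65 for PGRP-SC2 with PGRP-LB, 0.58 for PGRP-LB with PGRP-LF and 0.50 for PGRP-LB with PGRP-LE. Of the 10 pairs, 9 passed in limma in both directions, the exception being PGRP-LE with PGRP-LF (adjusted p = 0.0541). These calls stand beside a high background, because each gene was related to a large share of the array: 49.9% of probe sets passed with PGRP-SB1, 49.6% with PGRP-SC2, 51.5% with PGRP-LB, 46.0% with PGRP-LE and 45.5% with PGRP-LF. The order of the pairs is a description of these arrays.

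By labelled diet PGRP-SC2 with PGRP-LB gave 0.69 on control and 0.63 on lead, PGRP-LB with PGRP-LF 0.57 and 0.64, and PGRP-LB with PGRP-LE 0.61 and 0.49. The pair of PGRP-SB1 and PGRP-LE gave -0.10 on control and -0.30 on lead. On arrays with MtnB below and above 10, PGRP-SC2 with PGRP-LE gave 0.31 and 0.08, and PGRP-LE with PGRP-LF 0.34 and -0.03. Higher above 10 were the pairs of PGRP-SB1 with PGRP-SC2 (0.17 and 0.26), PGRP-LB (0.19 and 0.35) and PGRP-LF (0.39 and 0.43). No test of the difference between diets, or between arrays below and above 10, was made for the pairs.

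A measure of RNA integrity moved with 4 of the 5 genes. It is the signal of the Act5C control probe set at the 3′ end of the transcript minus that at the 5′ end, which grows as RNA is broken. Its r was -0.49 with PGRP-SB1, -0.55 with PGRP-SC2, -0.52 with PGRP-LB and -0.53 with PGRP-LF (permutation p of 1e-05 for each), with rho of -0.46, -0.55, -0.55 and -0.53. With PGRP-LE its r was -0.03 and its rho -0.06. The share of all probe sets that moved with this measure was not computed, so the count of 4 has no background beside it. With this measure as a covariate, 3 pairs of PGRP-SB1 no longer passed, with partial r of -0.02 with PGRP-SC2, 0.03 with PGRP-LB and 0.19 with PGRP-LF, nor did PGRP-SC2 with PGRP-LF, at 0.13.

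PGRP-LB with PGRP-SC2, PGRP-LE and PGRP-LF kept partial r of 0.53, 0.63 and 0.44 under the same covariate. The relations of Mtk stayed at 0.63 for PGRP-SB1 and 0.40 for PGRP-LF, while PGRP-LB dropped to 0.21 (adjusted p = 0.254).

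**Figure D4:**
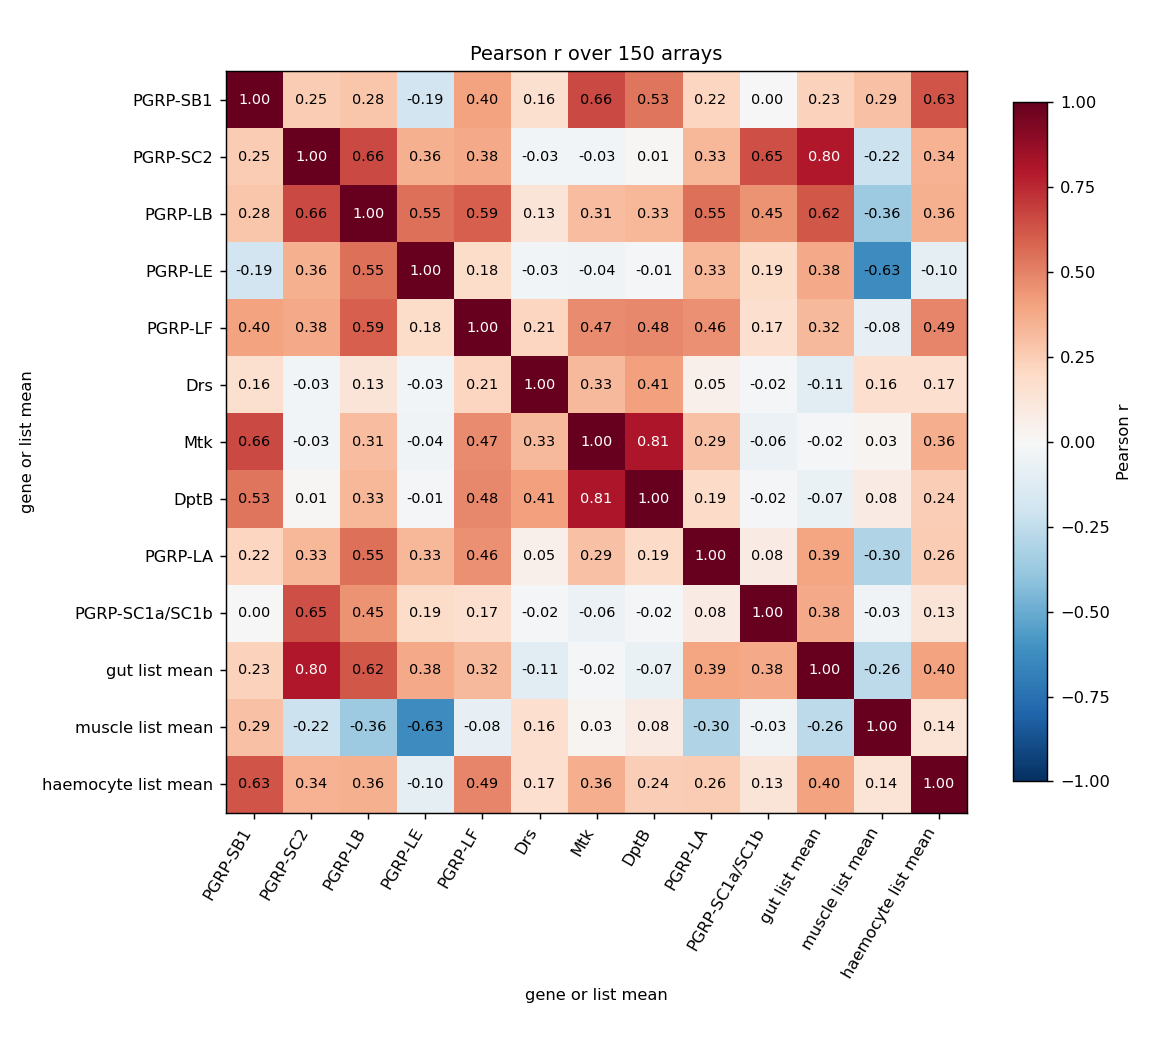
Pearson r over the 150 arrays between the 5 recognition protein genes, the 3 peptides, 2 further probe sets of the family and the mean signal of the gut, muscle and haemocyte lists, on a colour scale from -1 (blue) to 1 (red). PGRP-SB1 is red with Mtk, DptB and the haemocyte mean, and PGRP-SC2 with the gut mean and PGRP-LB.

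Each gene had its own company on the array. PGRP-SB1 was most like CG6503 (r = 0.82), Nplp2 (0.77), a neuropeptide-like precursor, and CG5493 (0.75) among all named genes. PGRP-SC2 was most like Jon44E (0.84) and Jon65Ai (0.81), serine proteases of the Jonah family of digestive enzymes, and GstE6 (0.80), a glutathione transferase. PGRP-LB was most like CG13482, the tetraspanin Tsp42Ed and CG34198, each at 0.78.

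PGRP-LE was most like CG15814 (0.73), CG4045 (0.72) and p53 (0.71), a transcription factor of the DNA damage response. PGRP-LF was most like the serpin Spn42Da (0.66), CG7083 (0.65) and aralar1 (0.65), a mitochondrial carrier. These r values were the highest of all named genes over the 150 arrays and are descriptions.

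Lists of cell type markers were related to the genes to different degrees. The mean signal of 15 gut genes, digestive proteases, maltases and lysozymes, had an r of 0.80 with PGRP-SC2, 0.62 with PGRP-LB, 0.38 with PGRP-LE, 0.32 with PGRP-LF and 0.23 with PGRP-SB1, with rho of 0.80, 0.67, 0.37, 0.31 and 0.24. All 15 were positive with PGRP-SC2 in limma, led by Mal-A7 (0.79), Jon25Biii (0.77), Mal-A8 (0.75) and Mal-A1 (0.75), where 19.6% of probe sets were. All 15 were also positive with PGRP-LB, where 23.2% of probe sets were, and the gut mean had an r of -0.02 with Mtk. The mean of 11 haemocyte and melanization genes had an r of 0.63 with PGRP-SB1 and 0.49 with PGRP-LF, with rho of 0.64 and 0.37. The haemocyte mean also had an r of 0.36 with Mtk, and 7 of its 11 genes were positive with Mtk, beside 2.43% of all probe sets. With DptB its r was 0.24, and 0 of the 11 genes were called, beside 0.938% of all probe sets positive. Of the 11 genes, 4 had a mean signal below 4. The part of the haemocyte mean in the relation of PGRP-SB1 and PGRP-LF to Mtk was not tested.

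With PGRP-SB1, 9 of the 11 haemocyte genes were positive and 1 negative, led by Hml (0.60) and eater (0.58), markers of blood cells, and all 4 fat body genes were positive, led by the lipoprotein gene apolpp (0.65), where 20.5% of probe sets were positive. The mean of 8 muscle genes had an r of -0.63 and a rho of -0.62 with PGRP-LE, and all 8 were negative with PGRP-LE, led by up (-0.66) and Tm2 (-0.64), and with PGRP-LB, led by bt (-0.72), where 22.7% and 28.2% of all probe sets were negative. The part of these cell types in the relations was not tested. Of the lists, only the gut mean was used as a covariate, chosen after seeing the data.

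Among pathway genes, 10 of 17 Toll genes were positive and 1 was negative with PGRP-SB1, led by the protease psh (0.69), nec (0.68), SPE (0.66) and the fungal recognition gene GNBP3 (0.65), beside 20.5% of all probe sets positive and 29.4% negative. With PGRP-LB, 9 of 16 Imd genes were positive and 2 negative, led by key (0.73), pirk (0.73), an inhibitor of the Imd receptors, and Tab2 (0.59), an adaptor of the pathway's kinase, beside 23.2% of all probe sets positive and 28.2% negative. Rel had an r of 0.52 with PGRP-LB and 0.55 with PGRP-LF. Toll genes were also positive with PGRP-LB (12 of 17, 0 negative) and with PGRP-LF (13 of 17, 0 negative). Of the 16 Imd genes, 5 were positive and 5 negative with PGRP-SB1, and 9 were positive and 4 negative with PGRP-LF. Of all probe sets, 21.6% were positive and 23.9% negative with PGRP-LF.

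**Figure D5:**
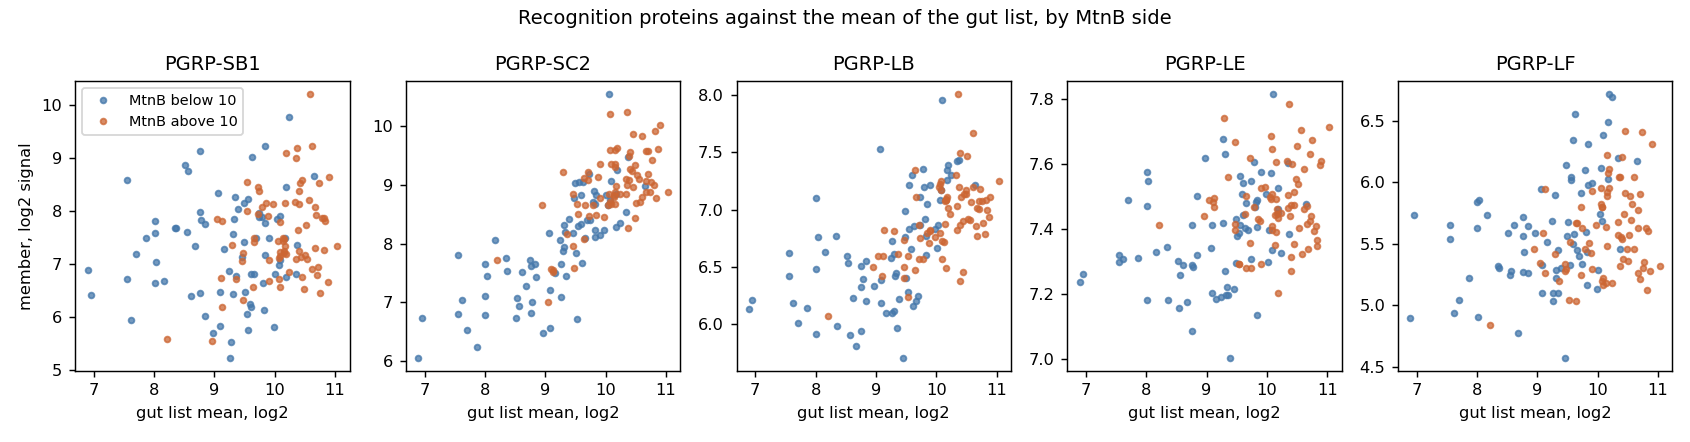
Log2 signal of each recognition protein gene (vertical axis) against the mean log2 signal of the 15 gut genes (horizontal axis) on the 150 arrays, with MtnB below 10 in blue and above 10 in orange. PGRP-SC2 follows the gut mean on both sides, with an r of 0.76 below and 0.64 above.

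Other genes of the family were read beside the 5. A probe set shared by PGRP-SC1a and PGRP-SC1b, gut amidases of which PGRP-SC1b is the neighbour of PGRP-SC2, ranged from 4.74 through 7.59 to 10.92 and had an r of 0.65 with PGRP-SC2, with a rho of 0.61 (permutation p of 1e-05 for both). Because a single probe set stands for both genes, their signals cannot be told apart. PGRP-LA, near PGRP-LF in a cluster with PGRP-LC, ranged from 6.42 through 7.09 to 8.49 and had an r of 0.46 and a rho of 0.53 with PGRP-LF (permutation p of 1e-05 for both). PGRP-SB2, the neighbour of PGRP-SB1, ranged only from 3.12 through 3.50 to 3.96 and had an r of 0.16 and a rho of 0.14 with it (permutation p of 0.0578 and 0.098).

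Arrays were last divided by MtnB, a metallothionein, at a signal of 10. MtnB formed separate clusters, with 74 arrays below and 76 above, a highest value below of 8.99 and a lowest above of 11.02. The sides come from a measured value and stand for no treatment: 36 of the arrays labelled control and 40 of those labelled lead were above, and 30 lines had an array on each side. In limma, 3 of the 5 genes differed between the sides, where 28.7% of probe sets did, and all 3 were higher above, as were 11.7% of probe sets.

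PGRP-SC2 ran from 6.05 through 8.06 to 10.55 below and from 6.998 through 8.93 to 10.25 above. It was 0.99 ± 0.12 (SE) higher above (adjusted p = 3.33e-11), and 69 of 76 arrays above exceeded the median of those below. The ranges overlapped, and the highest array of all, line 31 on control, was on the lower side. The difference was 1.08 on control, 0.92 on lead and 0.98 with line as a block.

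PGRP-LB ran from 5.71 through 6.60 to 7.96 below and from 6.07 through 6.90 to 8.01 above, a difference of 0.28 ± 0.07 (adjusted p = 0.000563). PGRP-LE ran from 7.003 through 7.38 to 7.81 below and from 7.20 through 7.46 to 7.78 above, a difference of 0.09 ± 0.02 (adjusted p = 0.000512). Both overlapped widely. With line as a block the difference was 0.24 for PGRP-LB, of a like size but no longer called (adjusted p = 0.187), and 0.11 for PGRP-LE (adjusted p = 0.0111).

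PGRP-SB1 ran from 5.23 through 7.30 to 9.77 below and from 5.53 through 7.42 to 10.20 above, a difference of 0.27 ± 0.15 (adjusted p = 0.17), which was 0.57 on arrays labelled control (adjusted p = 0.0449) and -0.03 on arrays labelled lead. The interaction of diet and side for it was -0.60 ± 0.29 with an adjusted p of 0.554, and 0% of probe sets passed that test in limma, 1645 having an unadjusted p under 0.05. PGRP-LF had the same median, 5.57, on both sides, a difference of -0.0082 ± 0.0656.

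These 3 peptides were not called between the sides: Drs differed by -0.30 ± 0.16, Mtk by -0.35 ± 0.21 and DptB by -0.30 ± 0.13, with adjusted p of 0.154, 0.204 and 0.0691. Other peptides were: of the 16 antimicrobial peptide genes on the list, 4 were higher above and 1 was lower. Of all probe sets, 11.7% were higher and 17% lower. Of the further family, PGRP-LA was 0.19 higher above (adjusted p = 0.000871) and the shared PGRP-SC1a and PGRP-SC1b probe set was not called, at 0.20 ± 0.24. Of the pathway lists, 4 of 16 Imd genes were higher above and 1 lower, and 9 of 17 Toll genes were higher and 1 lower, beside 11.7% of all probe sets higher and 17% lower. Taken in both directions together, the share of Imd genes called was near the 28.7% of all probe sets called.

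Gut genes moved with the sides. Of 15 gut genes 14 were higher above, beside 11.7% of all probe sets, led by LysX (1.75), Jon25Bii (1.67) and Jon25Bi (1.53), and the gut mean ran from 6.90 through 9.34 to 10.65 below and from 8.21 through 10.16 to 11.03 above. With the gut mean as a covariate, the difference was 0.25 for PGRP-SC2 (adjusted p = 0.0805), -0.03 for PGRP-LB (0.78) and 0.05 for PGRP-LE (0.222). PGRP-LF then passed, at -0.22 (adjusted p = 0.0234).

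Muscle genes moved the other way, with 6 of 8 lower above, beside 17% of all probe sets, and a list mean with medians of 10.77 below and 10.18 above. The Act5C 3′ minus 5′ value was 2.87 ± 0.63 (SD, n = 74) below and 2.60 ± 0.50 (SD, n = 76) above. With it as a covariate PGRP-SC2 kept a difference of 0.80, PGRP-LB of 0.18 and PGRP-LE of 0.10, all 3 still called.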

How the data were processed

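The deposited table holds 18952 probe sets on 150 arrays in values read as log2 signal from their range of 1.93 to 14.04. The authors' software for summarising and normalizing was not given in the labels used here. The values were used unchanged. For arrays, their number limits the precision. Array controls (183) were left out, with no filter on signal. Of the tested probe sets 13646 had 1 symbol in the platform table, 402 several and 4721 none. A gene table of assembly Release 6 plus ISO1 MT served for neighbours and symbols.

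Tests used limma 3.58.1 in R 4.3.3 over all probe sets, with Benjamini-Hochberg adjustment and a threshold of 0.05, and were tested on simulated data. Permutations used numpy 2.4.6. The pairing of diets by line comes from the labels. As a check, 34 of 75 lines had a correlation of deviations over 0.1, from -0.355 to 0.640.

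The members, the lists and the tests were chosen with earlier results of these data known. Named genes were all members, the 3 peptides, other family genes, the 3 genes most like each member, and up to 4 called genes of a list with the largest r or difference. The gut covariate, the Act5C and MtnB covariates for pairs, and the interaction of diet and side were added after seeing the data. Alternatives were centring, quantile normalization, a signal filter, line subsets, blocks, single diets, covariates, ranks and each line left out.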

Additional observations from a re-analysis of the deposited data

How the results depend on the processing

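The count of members called between diets, and by line, stayed at 0 of 5 in every alternative run. Leaving out each line in turn kept 3 members called for the MtnB side, for Mtk and for DptB, 0 for diet, and 0 to 1 for Drs. With lines above 200 alone, 1 member was called for the MtnB side, 1 for Mtk and 0 for DptB. With the replicate block 1 member was called for Mtk and 1 for DptB, and PGRP-LB lost its call for the MtnB side. The block changed the count of members called by more than 1.5 times for no comparison other than those of Mtk and DptB. On arrays labelled control alone 1 was called for Mtk and 1 for DptB. With the gut mean as a covariate, chosen after seeing the data, 1 was called for the MtnB side, 2 for Drs and 5 of 10 pairs, against 9. Drs had 1 call with the filter to brighter probe sets and 1 without the 8 lines of the arrays of lowest correlation. With Act5C as a covariate 5 of 10 pairs were called. Among values called in the reported fit or in the alternative, the signs that turned were those of PGRP-LB for the MtnB side with the gut covariate (-0.0349) and of PGRP-SB1 with PGRP-SC2 with the Act5C covariate (-0.0209). In 31 of 425 comparisons with an alternative, a sign changed where neither value was called. The causes were not tested. The subsets also hold fewer arrays, and the part of that number was not tested either.

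The count of all probe sets called also depended on the setting. Against 946 for Mtk it was 347 to 1550 with a line left out, 28 with the block, 25 on control alone, 113 on lead alone and 2232 with the gut covariate. Against 455 for DptB it was 145 to 1183, 13, 11, 72 and 2170. Against 2023 for Drs it was 1135 (without line 213) to 2293, 268, 9, 125 and 3556, and against 5394 for the MtnB side 5057 to 5933, 1684 with the block, 2325 on lead alone, 3070 with the gut covariate and 454 for lines above 200. For Mtk and DptB it was 171 and 105 without the 8 lines, 202 and 149 for lines 1 to 100, 9 and 7 for lines above 200, 2095 and 1561 with the MtnB side as a covariate, and 107 and 125 with Act5C. DptB also gave 818 with the filter, 1442 without the 2 farthest arrays and 2505 by ranks, and Drs 130 for lines 1 to 100 and 0 for lines above 200. The line effect had 0 or 1 call against 2, except under quantile normalization, which gave 2. A single line moved the count by over 1.5 times for 13 lines with Mtk and 27 with DptB. No second probe set existed for any member, so that alternative was not run.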

Other observations

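Genes of the male germline and accessory gland were negative with most of the recognition proteins. All 9 genes on that list were negative with PGRP-SC2 and all 9 with PGRP-LB, 8 with PGRP-LF, 6 with PGRP-SB1 and 4 with PGRP-LE in limma, led by Acp62F (r = -0.54 with PGRP-LB), Acp26Aa (-0.54 with PGRP-SC2) and Mst84Db (-0.51 with PGRP-LF). Of all probe sets, 30% were negative with PGRP-SC2, 28.2% with PGRP-LB, 23.9% with PGRP-LF, 29.4% with PGRP-SB1 and 22.7% with PGRP-LE. The list mean had an r of -0.58 with PGRP-LB, -0.53 with PGRP-SC2 and -0.50 with PGRP-LF, with rho of -0.62, -0.55 and -0.52. On control and lead it was -0.68 and -0.35 for PGRP-SC2 and -0.33 and -0.70 for PGRP-LF, a difference between diets that was not tested.

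The named genes most opposite to each member, picked after their values were seen, were inaE (-0.60) for PGRP-SB1, Sh (-0.68), a potassium channel, for PGRP-SC2, bt (-0.72), the muscle protein projectin, for PGRP-LB, Prm (-0.73), the muscle protein paramyosin, for PGRP-LE and CG12362 (-0.67) for PGRP-LF. The larval serum protein gene Lsp2 had an r of -0.51 with PGRP-LE and 0.34 with PGRP-SB1, and the fat body list mean -0.43 and 0.41. The 4 fat body genes did not all go the same way with PGRP-LE. Of them 1 was positive and 2 were negative, with r from -0.51 to 0.28, beside 23.3% of all probe sets positive and 22.7% negative.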
